A study of Mus musculus with 41 samples.

Results

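Keratins are the proteins of the intermediate filaments that give epithelial cells their mechanical strength, and each filament is built from an acidic type I and a basic type II partner. Type I genes lie mainly together on mouse chromosome 11 and type II genes on chromosome 15, and every epithelium uses its own pairs. Basal epidermal cells make KRT5 and KRT14, the layers above them switch to KRT1 and KRT10, wounded epidermis adds KRT6 and KRT16, simple epithelia use KRT8 and KRT18, and the hair follicle has separate sets for the inner root sheath and the hair shaft. Because keratin pairs mark the epidermal and the hair follicle fates, these genes were followed while SOX9, a transcription factor of hair follicle stem cells, was switched on in epidermal stem cells (EpdSCs).

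The keratin genes were taken as all protein-coding genes of the mm10 annotation whose symbol is Krt followed by a digit. There were 53 of them among 21938 protein-coding genes, 27 on chromosome 11 and 26 on chromosome 15. The chromosome 11 cluster was divided at its widest gap (468.0 kb, which holds the genes of keratin-associated proteins, Krtap) into a left block of 12 genes from Krt222 to Krt40 and a right block of 15 genes from Krt33a to Krt42. Textbook classes gave 3 basal epidermal, 5 suprabasal, 5 wound-induced or companion layer, 8 other stratified, 6 simple epithelial, 7 inner root sheath and 15 hair shaft genes, and 4 genes were left without a class. A peak was counted for a gene when it overlapped the gene body or the 5 kb to each side by at least 1 bp. Neighbouring windows overlapped in 26 pairs, so that 1 peak can count for a pair of genes, and distinct peaks are given beside gene counts.

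Binding was measured with CUT&RUN (CNR), in which an antibody directs a nuclease to cut out the DNA around its target. In skin, cells were sorted from the back of male CD1 mice that carried K14rtTA and TRE-myc-Sox9. The Krt14 promoter thus drives the activator in every group, and SOX9 with a MYC tag is made once doxycycline (DOX) is given. SOX9 was profiled before DOX (D0, postnatal day 21) and after 1, 2 and 6 weeks (W1, W2 and W6, days 28, 35 and 63), and after 12 weeks in grafted skin (W12). Age, and at W12 grafting onto an immunocompromised host, therefore differ along with weeks of DOX. The enhancer methyltransferases MLL3/4 were profiled at D0, W1 and W2. Cells were gated as negative for CD31, CD45, CD117, CD140a and CD34 and as high for CD49f and Ly6A. In culture, keratinocytes from CD1 male back skin carried K14rtTA with TRE-myc-Sox9 (WT-SOX9), with a SOX9 lacking its transactivation domain (noTA in the labels, dTA-SOX9 here) or with a SOX9 lacking its DNA-binding HMG domain (noHMG, dHMG-SOX9). These cells received 1 µg/ml DOX, and WT-SOX9 cells without DOX were the control. The MYC tag and MLL3/4 were profiled in all 4 culture groups. Each group had 2 samples, but the values used here come from 1 list of peaks per group that was called on pooled samples, so that no comparison below has a replicate error or a test. All counts are descriptions of these 16 lists and are read beside the share of all protein-coding genes that met the same rule.

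List length and depth set what could be seen. The SOX9 lists held 792 peaks at D0 and 9745 to 20579 afterwards, the MYC-tag lists 2242 to 11341, the MLL3/4 lists of skin 29281 to 37072 and those of culture 10543 to 33975. In the SOX9 lists the weakest peak held 24 to 59 fragments at its maximum, and in the MYC-tag lists 8 to 11. The MLL3/4 lists were not scaled, so their depth is unknown and their signals are given only as ranks within a list. A gene without a peak may carry signal under the limit of its list. RNA was not measured in these samples, so the EpdSC label could be set only against binding: the basal keratin genes Krt5, Krt14 and Krt15 each had MLL3/4 peaks in all 3 skin lists. At D0 the suprabasal genes Krt1, Krt77, Krt10 and Krt2 had them as well, and the highest-ranking peak of Krt1 and Krt77 stood in percentile 96.8 of the list by total signal, that of Krt14 in percentile 95, that of Krt5 in percentile 92 and that of Krt15 in percentile 67.2.

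SOX9 peaks were present at 6 of 53 keratin genes at D0 (background over all genes 2.2%). At W1 there were 20 (background 27.3%). W2 had 16 (background 32.8%), W6 had 23 (background 32.4%) and W12 had 9 (background 17.3%). As shares of the keratin genes these were 11.3%, 37.7%, 30.2%, 43.4% and 17%. In these windows and at this limit the keratin share was thus near the background at W2 and W12, and above it at D0, W1 and W6. Keratin windows are short, with a median of 16594 bp against 27425 bp for all genes. With 5 kb to each side of the gene start as the window of every gene, 5 keratin genes had a peak at D0 (background 0.921%) and 14 at W1 (background 16.6%). W2 then had 13 (background 21.9%), W6 18 (background 19.7%) and W12 8 (background 6.67%). As shares of the keratin genes these were 9.43%, 26.4%, 24.5%, 34% and 15.1%, so W12 was then above its background as well. When the 4 later lists were shortened to 9745 peaks each, W1, W2 and W6 had 14 keratin genes each (backgrounds 16.4%, 19% and 16.4%) and W12 had 9 (background 17.3%), so that W1, W2 and W6 no longer differed. With the limit doubled to 3600 RPKM, 3, 9, 8 and 2 genes had a peak from W1 to W12 (backgrounds 8.42%, 15.2%, 11.5% and 4.59%) and none at D0. The keratin shares at W1 and W12 were then below their backgrounds.

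**Figure D1:**
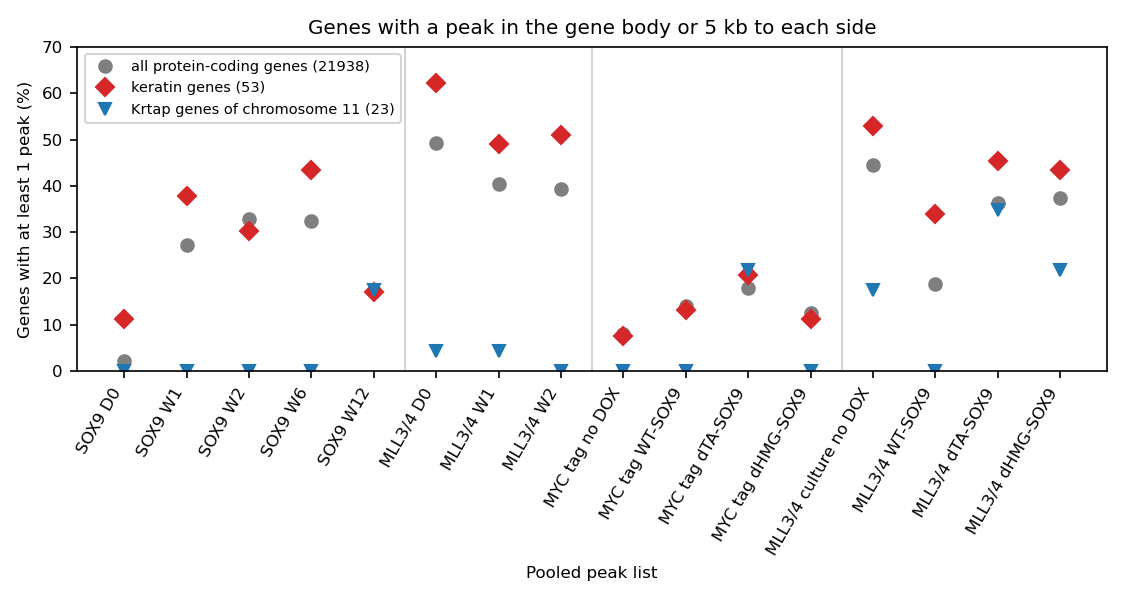
Share of genes with at least 1 peak in each of the 16 pooled lists (percent, vertical axis), for 53 keratin genes (diamonds), all 21938 protein-coding genes (circles) and 23 Krtap genes of chromosome 11 (triangles). Keratin genes lie above all genes in every MLL3/4 list, while their SOX9 share at W2 (30.2%) is below that of all genes (32.8%).

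Distinct peaks showed where in the clusters this signal lay. Keratin windows held 5, 27, 38, 32 and 12 distinct SOX9 peaks at D0, W1, W2, W6 and W12. Per 100 kb of window, W2 came to 4.61 peaks at keratin genes and 1.02 at all genes. Keratin genes are short, with a median of 6594 bp against 17425 bp. Flanks therefore fill more of their windows, in this density and in the later ones against all genes. The median keratin gene had 0 SOX9 peaks at W2, as did the median of all genes. Counted over whole spans, genes or not, the right block of chromosome 11 (268.7 kb) held 3, 18, 25, 19 and 8 SOX9 peaks at the 5 times. The left block, a longer span of 320.4 kb with Krt10 and the inner root sheath genes Krt25 to Krt28, held 0, 2, 1, 4 and 1. The chromosome 15 block of 694.6 kb held 2, 17, 30, 25 and 10. Between the chromosome 11 blocks, none of the 23 Krtap genes had a SOX9 peak from D0 to W6, and 4 had one at W12 from 2 distinct peaks.

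**Figure D2:**
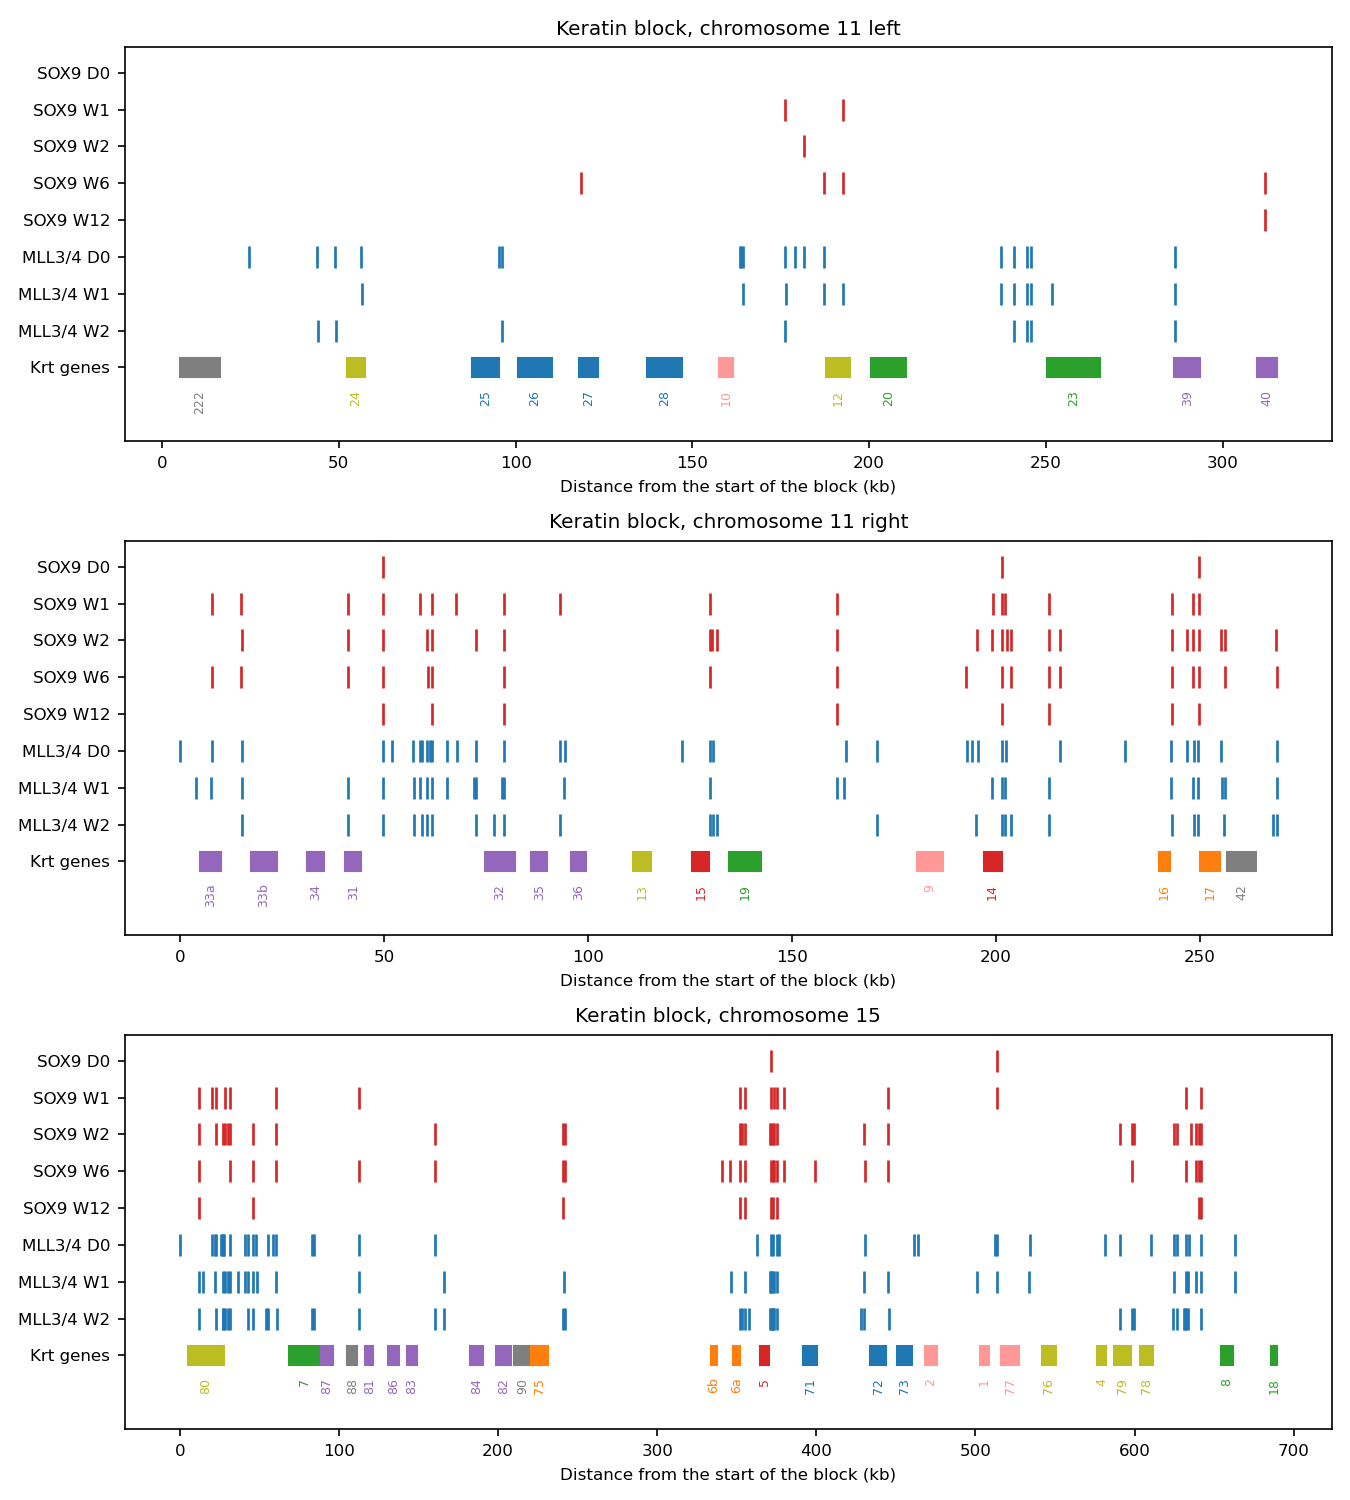
Peaks along the 3 keratin blocks (horizontal axis, distance from the start of the block in kb), SOX9 in red and MLL3/4 in blue, 1 line of ticks per skin list, with keratin genes as boxes coloured by class and labelled by number. SOX9 ticks gather at Krt31 and Krt32, Krt14 to Krt17, Krt80 and Krt6a to Krt5, and few lie in the left chromosome 11 block.

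By class, basal epidermal genes carried SOX9 most often. All 3 of them had a peak at W1, W2 and W6, and 2 of 3 at D0 and W12. Among wound-induced and companion layer genes, 1 of 5 had a peak at D0, 3 at W1, W2 and W12, and 4 at W6. Hair shaft genes numbered 1, 7, 4, 6 and 3 of 15, and inner root sheath genes 0, 1, 1, 3 and 0 of 7. Suprabasal genes numbered 2 of 5 at D0 and W1 and 0 at W2, W6 and W12. Of the 6 simple epithelial genes only Krt19 had a SOX9 peak, and each of those peaks lay also in the window of its neighbour Krt15, upstream of that gene. Per 100 kb at W2, basal windows held 29.3 peaks, wound and companion layer windows 12.2 and hair shaft windows 1.88.

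**Figure D3:**
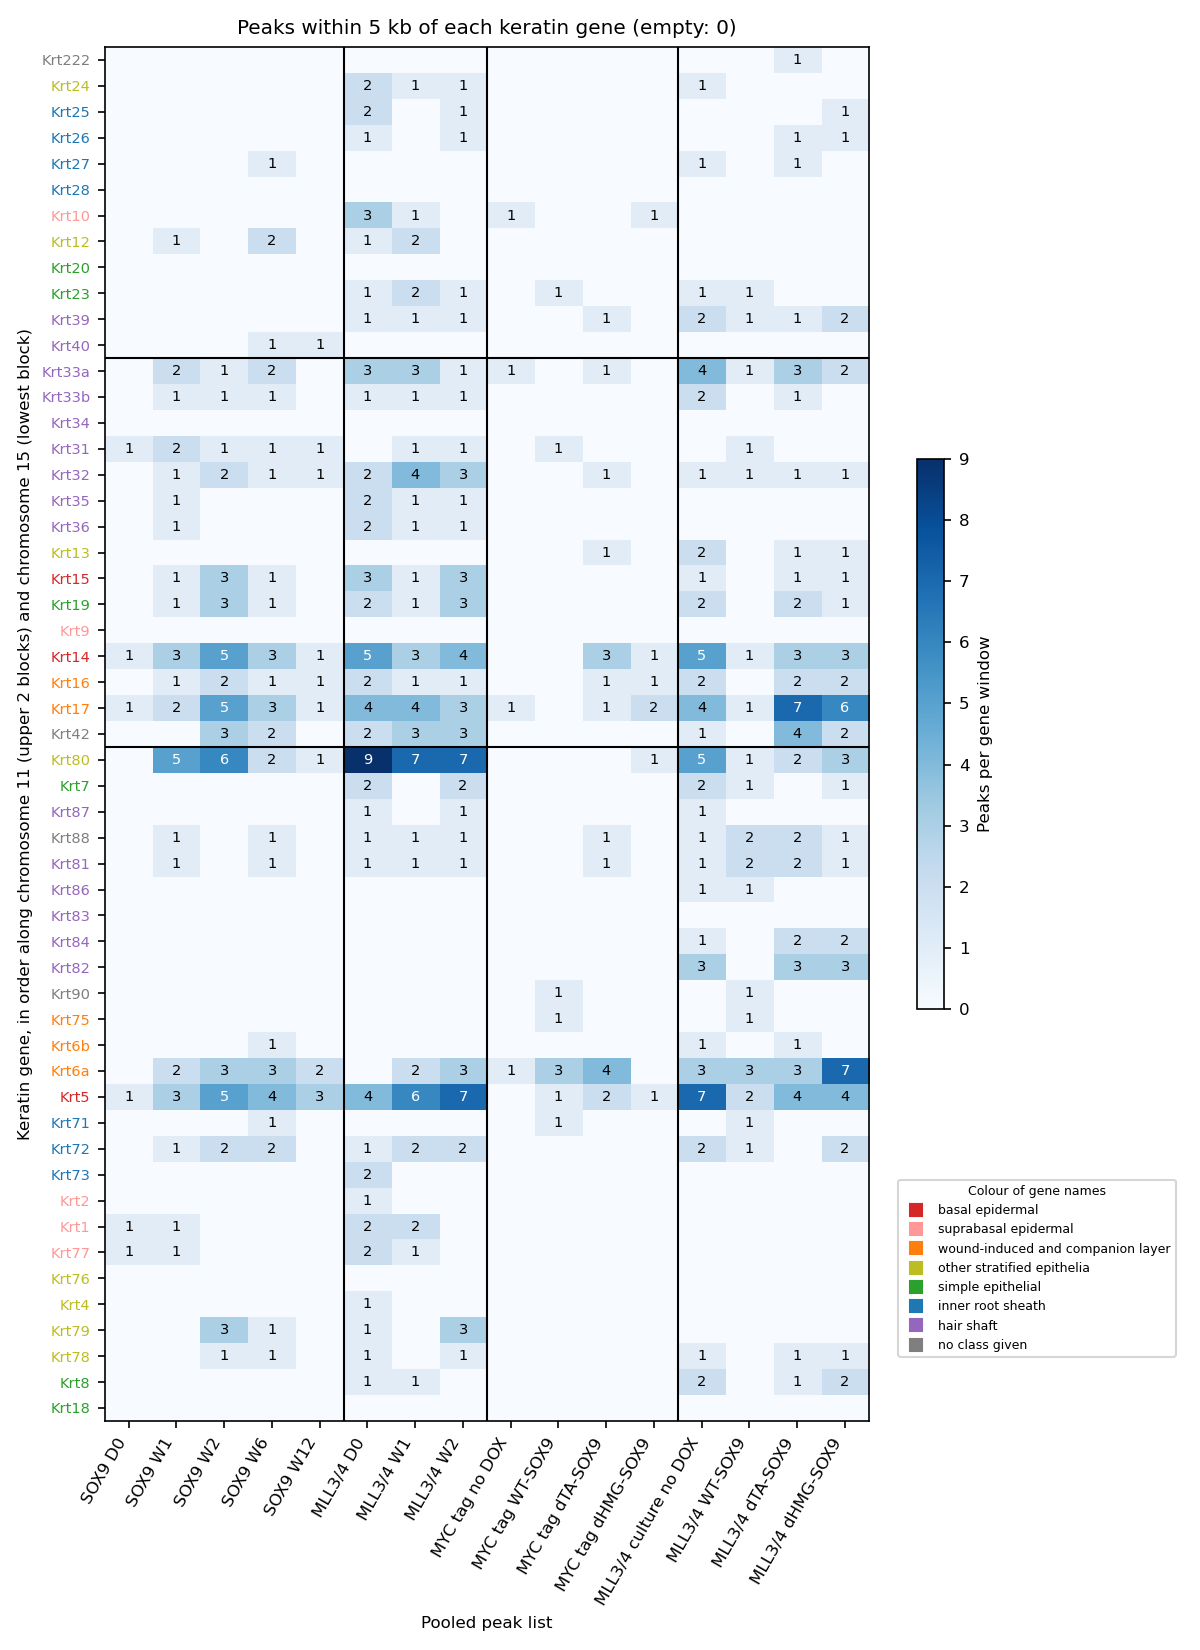
Number of peaks within 5 kb of each keratin gene (rows, in chromosome order, names coloured by class) in each of the 16 pooled lists (columns), darker blue for more peaks and no number for 0. Rows with numbers in most columns include Krt14, Krt17, Krt5 and Krt6a, and the rows of Krt1, Krt77, Krt2 and Krt10 have MLL3/4 numbers only at D0 or at D0 and W1.

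Of the 53 genes, 27 had a SOX9 peak at W1, W2, W6 or W12 (50.9%, background 41.3%), and 8 (15.1%, background 12.6%) had one at all 4 times: Krt5, Krt14, Krt6a, Krt16, Krt17, Krt80, Krt31 and Krt32. The first 5 of these serve the basal layer, the wounded epidermis and the companion layer, Krt80 is made in stratified epithelia, and Krt31 and Krt32 are hair shaft keratins. Another 7 genes had no peak in any of the 16 lists (13.2%, background 32.6%), namely Krt28, Krt20, Krt34, Krt9, Krt83, Krt76 and Krt18. From D0 to W1, 14 keratin genes gained a first SOX9 peak (26.4%, background 25.2%), which means a peak in the later list and none in the earlier. From W1 to W2, 3 gained (5.66%, background 8.53%) and 7 lost their last (13.2%, background 3.06%). From W2 to W6, 7 gained (13.2%, background 5.64%) and 0 lost (background 5.98%). From W6 to W12, 0 gained (background 1.45%) and 14 lost (26.4%, background 16.6%). These lists differ in length.

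Merged over time, the SOX9 peaks at keratin genes formed 46 sites. All were present in at least 1 of the later lists, 10 at all 4 later times, 7 at 3, 12 at 2 and 17 at 1. The annotation put 15 within 1 kb of a transcript start, 8 in introns, 23 between genes and 0 in exons. Only 5 sites had a peak already at D0, near Krt31, Krt14, Krt17, Krt5 and Krt1. Their sequences are shown because SOX9 CNR had a peak at these sites before DOX. Each is 101 bp of the mm10 reference on the strand of the gene, centred on the maximum of the site's highest-ranking SOX9 peak over the 5 times, with the distance in bp from the gene start in its name, and none of them holds a SOX word (CCATTGT or CCTTTGT or GCATTGT or GCTTTGT, on either strand). The maximum at D0 itself lay 78 bp from this centre at Krt31, 36 bp at Krt5, and 5, 2 and 0 bp at Krt14, Krt17 and Krt1. An AP1 word lay within 50 bp of the D0 maximum at Krt31, Krt17 and Krt5, and the windows printed here hold one (TGACTCA) at Krt17 alone.
Krt14 -119: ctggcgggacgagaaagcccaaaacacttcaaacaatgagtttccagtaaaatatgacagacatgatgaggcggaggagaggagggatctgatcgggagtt
Krt5 -1045: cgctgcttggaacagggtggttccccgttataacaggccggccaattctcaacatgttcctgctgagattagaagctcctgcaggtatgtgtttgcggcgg
Krt17 +5165: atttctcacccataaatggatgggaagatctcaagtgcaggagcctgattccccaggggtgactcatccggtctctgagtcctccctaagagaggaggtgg
Krt31 -5414: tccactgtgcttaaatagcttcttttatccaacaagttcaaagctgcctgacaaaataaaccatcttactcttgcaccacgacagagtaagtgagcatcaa
Krt1 -4943: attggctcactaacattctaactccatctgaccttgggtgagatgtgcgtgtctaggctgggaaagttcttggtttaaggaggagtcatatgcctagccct
They lie at chr11:100207617-100207717, chr15:101713893-101713993, chr11:100255814-100255914, chr11:100055915-100056015 and chr15:101855687-101855787, all on the minus strand.

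The site at the Krt14 start had the highest SOX9 signal among them at D0. The peak at its centre reached 3535, 4898, 8175, 5751 and 5009 RPKM in the lists of D0, W1, W2, W6 and W12. At D0 it ranked 20 of 792 peaks by total signal. KRT14 is the type I keratin of basal cells, and the gene (chr11:100203162-100207548) had 1, 3, 5, 3 and 1 SOX9 peaks over the 5 times. Its type II partner Krt5 (chr15:101707070-101712898) had 1, 3, 5, 4 and 3. The Krt5 site at -1045 bp stood at 1814, 2593, 5577, 3862 and 1930 RPKM, so that at D0 it was just over the 1800 limit of the list. Both basal partners thus had a SOX9 peak in every list, and both sites stood highest at W2.

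Krt17, a keratin of the companion layer and of activated epidermis, had 1, 2, 5, 3 and 1 SOX9 peaks, and its downstream site at +5165 bp stood at 2552, 3342, 7411, 4827 and 2252 RPKM. Krt31, a type I hair shaft keratin, had its D0 site at -5414 bp, in an intron of the noncoding gene Gm11571 and at the edge of the 5 kb window, with 1906, 5589, 5653, 5583 and 2712 RPKM. The site at -4943 bp from Krt1 behaved otherwise. It lies between Krt1 and Krt77, a pair of suprabasal type II genes, and had 1906 RPKM at D0 and 3573 at W1 and no peak at W2, W6 or W12. Of the 5 sites with a D0 peak it was the only one not listed at all later times.

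**Figure D4:**
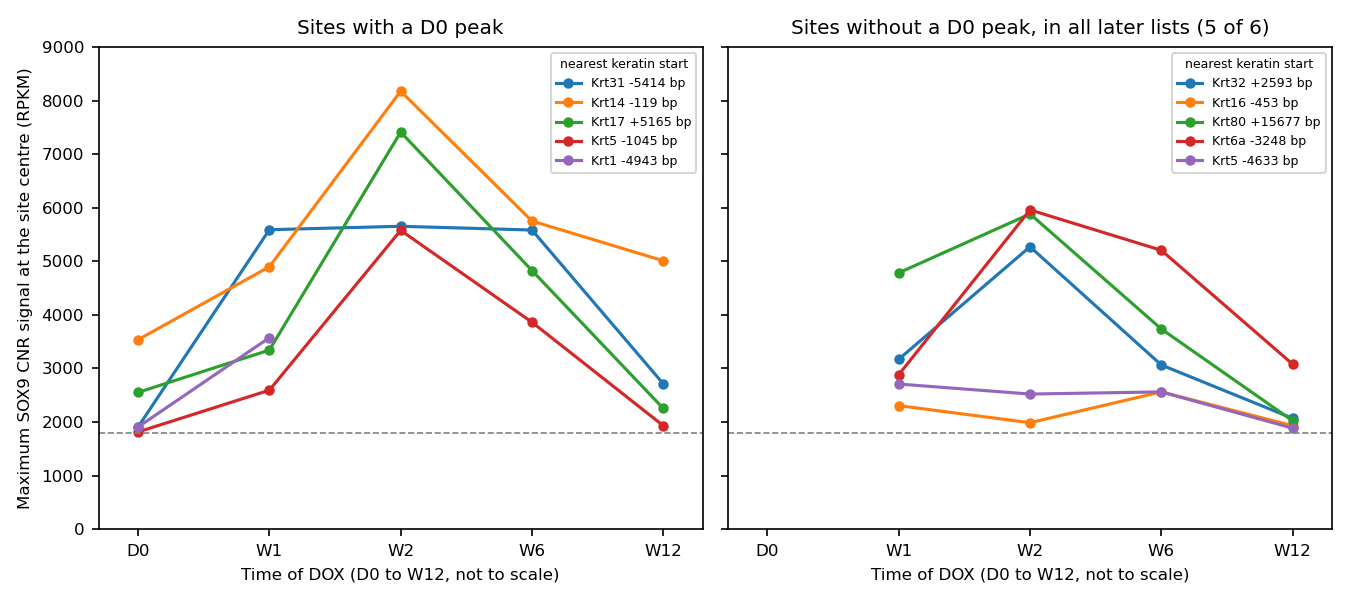
Maximum SOX9 CNR signal of the peak at the centre of a site (RPKM, vertical axis) at D0, W1, W2, W6 and W12 for the 5 keratin sites with a D0 peak (left) and 5 of the 6 sites without a D0 peak that were in all later lists (right), each named by its nearest keratin start. A missing point means no peak, and the dashed line is the limit of 1800 RPKM. Krt14 -119 stands highest at D0 and W2 and Krt1 -4943 ends after W1.

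Of the 6 sites that had no D0 peak and were listed at W1, W2, W6 and W12, 5 are described here, at Krt6a, Krt80, Krt32, Krt5 and Krt16. Their sequences are given in order of total signal at W2 because they are among the keratin sites that SOX9 held longest without being listed before DOX, and capitals mark a SOX word where there is one.
Krt6a -3248: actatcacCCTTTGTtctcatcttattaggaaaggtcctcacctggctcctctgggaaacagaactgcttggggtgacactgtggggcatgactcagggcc
Krt80 +15677: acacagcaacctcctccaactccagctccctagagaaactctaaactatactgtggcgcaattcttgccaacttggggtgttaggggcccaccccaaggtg
Krt32 +2593: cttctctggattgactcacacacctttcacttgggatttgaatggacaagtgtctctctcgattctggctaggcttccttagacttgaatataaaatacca
Krt5 -4633: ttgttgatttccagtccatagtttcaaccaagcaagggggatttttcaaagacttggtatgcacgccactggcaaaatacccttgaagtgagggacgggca
Krt16 -453: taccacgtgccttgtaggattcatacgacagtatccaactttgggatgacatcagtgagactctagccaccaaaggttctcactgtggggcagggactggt
They lie at chr15:101697505-101697605, chr15:101354435-101354535, chr11:100085583-100085683, chr15:101717481-101717581 and chr11:100249305-100249405, on the minus strand. Of these 5, only the Krt6a site holds a SOX word (CCTTTGT). The AP1 word TGACTCA is present at that site and at Krt32 +2593. A word is a match of letters and no evidence of use, and its absence concerns only this window and these spellings.

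Krt6a, a type II keratin made in the companion layer and in wounded or stressed epidermis, had no SOX9 and no MLL3/4 peak at D0. SOX9 peaks numbered 2, 3, 3 and 2 from W1 to W12, and MLL3/4 peaks 2 at W1 and 3 at W2. At -3248 bp SOX9 stood at 2881, 5959, 5205 and 3079 RPKM in the lists of W1, W2, W6 and W12. Its near-identical neighbour Krt6b had 1 SOX9 peak in skin, at W6, and no MLL3/4 peak there. How reads that fit both copies were placed is not given in the sources used here, so the division between Krt6a and Krt6b is uncertain. The same holds among Krt14, Krt16, Krt17 and Krt42, which resemble one another. Krt16, the type I partner of KRT6, had 1, 2, 1 and 1 SOX9 peaks from W1 to W12.

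Krt80 (chr15:101347444-101370162) had no SOX9 peak before DOX and then 5, 6, 2 and 1 from W1 to W12. The peak that was always there lay in an intron at +15677 bp, with 4783, 5883, 3736 and 2022 RPKM. That intronic site had no MLL3/4 peak at D0 and had one at W1 and W2. Krt32, a hair shaft keratin, had 5271 RPKM at W2 at its site inside the gene. Krt15, a keratin of basal cells and of the hair follicle bulge, had 1, 3, 1 and 0 SOX9 peaks from W1 to W12, with maxima of 2824, 2674 and 2519 RPKM at the site next to its start. At W2 a stronger peak (3361 RPKM) lay further upstream. Krt79, made in the hair canal and sebaceous duct, had 0, 3, 1 and 0 SOX9 peaks from W1 to W12. Its start site at -255 bp stood at 5042 RPKM at W2 and 4030 at W6.

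Among the other hair follicle keratin sites, Krt33a and Krt33b, a pair of type I hair shaft genes, shared a site at -5128 bp from Krt33a with 3169, 3056 and 2183 RPKM at W1, W2 and W6, which had MLL3/4 in all 3 skin lists. Krt35 and Krt36 shared a site seen at W1 alone (2074 RPKM). Krt40 had an intronic site at W6 and W12 (2603 and 1838 RPKM) without MLL3/4 in any list. Krt81, a type II hair shaft gene, shared a site with Krt88 that had 2132 RPKM at W1 and 2183 at W6. Of the inner root sheath genes, Krt72 was the one with SOX9 at W1, W2 and W6. Its site at -1056 bp had 2939, 3361 and 3736 RPKM, with MLL3/4 at W1 and W2 and none at D0. Krt27 and Krt71 had a SOX9 peak at W6 alone, of 2519 and 2057 RPKM, and Krt25, Krt26, Krt28 and Krt73 had none.

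SOX words were counted within 50 bp of the maximum. In the W2 list 1 of 38 keratin peaks held one (2.63%, Wilson 95% interval 0.466 to 13.5) and 15.5% of all peaks of the list. For W1 the shares were 2 of 27 (7.41%, 2.06 to 23.4) and 18.5%. At W6 6 of 32 held one (18.8%, 8.89 to 35.3) against 18.8%, and at W12 3 of 12 (25%, 8.89 to 53.2) against 24.8%. At D0 none of the 5 keratin peaks held one, and 8.21% of the list did. Over the whole peak, 12 of 38 W2 keratin peaks held a SOX word (31.6%) against 37%, 13 of 27 at W1 (48.1%) against 50.2% and 19 of 32 at W6 (59.4%) against 48.2%. W12 had 3 of 12 (25%) against 48.2%, and D0 1 of 5 (20%) against 36.2%. AP1 words (TGACTCA or TGAGTCA) were at 3 of 5 keratin peaks at D0 (60%, 23.1 to 88.2, and 45.3% of the list), at 8 of 27 at W1 (29.6%, 15.9 to 48.5, list 16.2%) and at 6 of 38 at W2 (15.8%, 7.44 to 30.4, list 15.7%). W6 had 7 of 32 (21.9%, 11 to 38.8, list 23.5%) and W12 4 of 12 (33.3%, 13.8 to 60.9, list 29.9%). Among the 46 sites, 7 held a SOX word at the centre, 3 a GATA word (AGATAAG or AGATAAC), 1 the RUNX word AACCACA and 1 the TP63 word. Intervals cover counting error over peaks only.

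MLL3/4 peaks were present at 33 keratin genes at D0 (background 49.2%), at 26 at W1 (background 40.5%) and at 27 at W2 (background 39.3%), or 62.3%, 49.1% and 50.9% of the members. Within 5 kb of the gene start alone it was 18, 18 and 15 genes, or 34%, 34% and 28.3% (backgrounds 36.7%, 25.8% and 26.5%), so that the share at D0 was then below that of all genes. Distinct peaks numbered 56, 47 and 48, and per 100 kb of window 6.79, 5.7 and 5.82 against 2.1, 1.63 and 1.57 at all genes. Of the 53 genes 19 had an MLL3/4 peak in all 3 lists (35.8%, background 29.3%), among them Krt5, Krt14, Krt15, Krt16, Krt17, Krt19, Krt80 and the hair shaft genes Krt32, Krt33a, Krt35 and Krt36.

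The suprabasal genes were the only class with MLL3/4 peaks at D0 and none at W2. KRT1 and KRT10 are the pair that basal cells switch on when they leave the basal layer, and KRT2 and KRT77 are made in the layers above. MLL3/4 peaks were present at 4 of 5 suprabasal genes at D0, at 3 at W1 and at 0 at W2, and distinct peaks numbered 6, 3 and 0. The Krt1 site at -4943 bp, which also counts for Krt77, ranked in percentile 96.8 of its list by total signal at D0 and in percentile 71.8 at W1. Its SOX9 peak was listed at the same 2 times. Krt10 had 3 MLL3/4 peaks at D0, the strongest in percentile 74.8, then 1 in percentile 56.4 at W1 and none at W2, and no SOX9 peak at any time. Krt2 had 1 D0 peak, in percentile 1.47, and Krt9, a keratin of palms and soles, had none. In lists of 29281 peaks each, Krt1, Krt10 and Krt77 still had a peak at D0 and none at W2, and the D0 peak of Krt2 was left out. All these peaks lie outside the gene bodies, so that gene bodies alone show no suprabasal gene among the 4 that then lost their last peak.

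Over all keratin genes, 8 lost their last MLL3/4 peak between D0 and W2 (background 14.6%), and these were Krt1, Krt77, Krt2, Krt10, Krt12, Krt73, Krt4 and Krt8. By W1 it was 9 (background 14.2%), namely Krt25, Krt26, Krt7, Krt87, Krt73, Krt2, Krt4, Krt79 and Krt78. A first MLL3/4 peak was gained by 2 keratin genes at W1 (background 5.44%) and by 2 at W2 (background 4.66%). These were Krt31 and Krt6a each time. The Krt31 site at -5414 bp, at the edge of its window, overlapped MLL3/4 peaks at D0, W1 and W2. Those peaks lie outside the window and were not counted for Krt31. The count of genes that gained a first peak at W2 was 4 in lists of equal size (background 6.65%) and 6 with the stronger 50% of peaks (background 3.3%). At W1 it was 4 with gene bodies alone (background 5.45%), 4 with the stronger 50% (background 3.61%) and 5 with 10 kb to each side (background 5.63%). Krt6a was gained under all of these but gene bodies alone at W1, and Krt31 under all but the 10 kb windows. Krt8, the type II keratin of simple epithelia, had 1, 1 and 0 MLL3/4 peaks, its partner Krt18 had none, and Krt7 had 2, 0 and 2. Krt25, of the inner root sheath, had 2, 0 and 1, and Krt71 had none in skin.

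**Figure D5:**
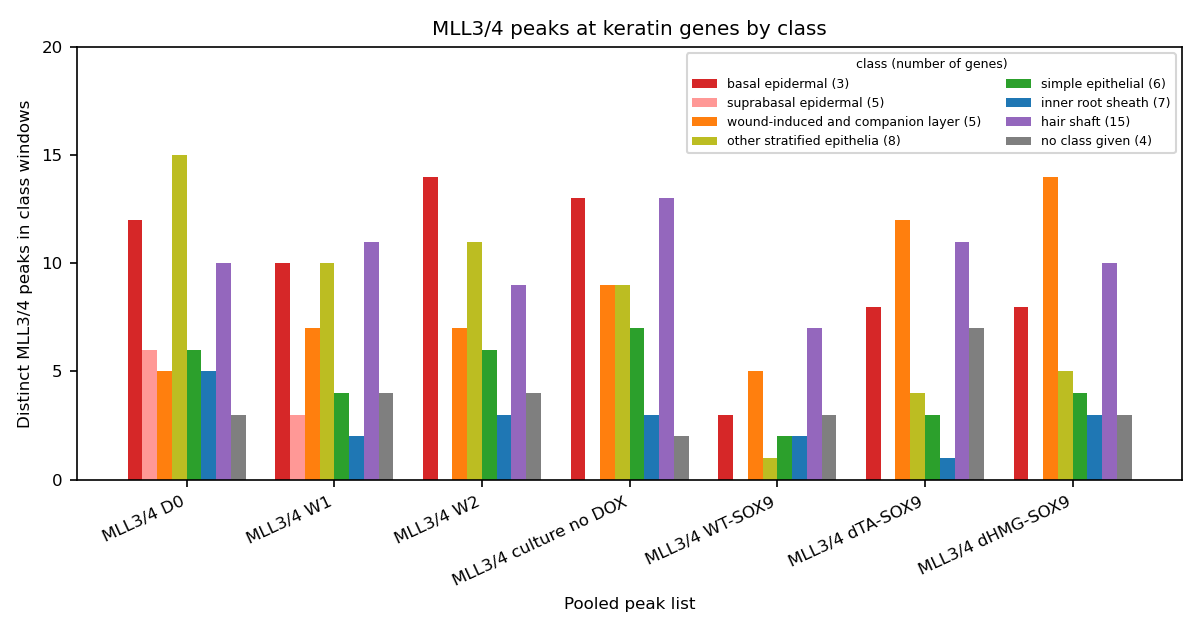
Distinct MLL3/4 peaks in the windows of each keratin class (bars, colours as named with the number of genes) in the 3 lists of skin and the 4 of cultured cells. Suprabasal bars stand at 6 and 3 at D0 and W1 and at 0 in all other lists, while basal bars stand at 12, 10 and 14 in skin.

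SOX9 and MLL3/4 peaks coincided at most keratin sites. Of the W2 SOX9 peaks at keratin genes, 36 of 38 overlapped a W2 MLL3/4 peak (94.7%, Wilson 95% interval 82.7 to 98.5; all W2 SOX9 peaks 78.7%), and 23 of 38 overlapped a D0 MLL3/4 peak (60.5%, 44.7 to 74.4; all 66.3%). For W1 these were 24 of 27 on W1 MLL3/4 (88.9%, 71.9 to 96.1; all 82%) and 19 of 27 on D0 MLL3/4 (70.4%, 51.5 to 84.1; all 67.7%). On D0 MLL3/4, the W2 SOX9 peaks divided into 14 of 19 on chromosome 11 (73.7%, 51.2 to 88.2) and 9 of 19 on chromosome 15 (47.4%, 27.3 to 68.3), with intervals that overlap. Counted as sites, 28 of 46 lay on D0 MLL3/4, 14 had MLL3/4 at W1 or W2 and none at D0, and 4 had none in skin.

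Peaks of MLL3/4 that differed between lists can be read against SOX9. Of 48 keratin MLL3/4 peaks at W2, 19 did not overlap a D0 peak (39.6%, whole list 35.7%), and 16 of those 19 (84.2%) overlapped a W2 SOX9 peak, against 38.5% of such peaks in the whole list. At W1, 17 of 47 did not overlap a D0 peak (36.2%, whole list 39.7%). Of those 17, 8 (47.1%) overlapped a W1 SOX9 peak, against 30.5% of such peaks in the whole list. The W2 peaks without a D0 peak had a median percentile of 34.2 by total signal, and the shared W2 peaks 53.8. Of 56 keratin MLL3/4 peaks at D0, 25 did not overlap a W2 peak (44.6%, whole list 48.7%), and 3 of those 25 (12%) overlapped a W2 SOX9 peak, against 9.06% in the whole list. The 31 that were shared carried W2 SOX9 in 21 cases (67.7%, whole list 58.3%). The unshared D0 peaks were also the weaker ones, with a median percentile of 37.7 by total signal against 67.2 for the shared, and the part of peak strength was not tested. Shared peaks, which made up 51.3% of the whole D0 list, were 4 of 5 at wound and companion layer genes, 7 of 10 at hair shaft genes, 7 of 12 at basal genes, 5 of 6 at simple epithelial genes, 9 of 15 at other stratified genes, 1 of 5 at inner root sheath genes and 0 of 6 at suprabasal genes. The count for Krt1 and Krt77 is of the same peaks.

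In culture, MYC-tag peaks were present at keratin genes in shares near those of all genes. Without DOX, when no tagged SOX9 is induced, 4 genes had one (7.55%, background 8.04%), with WT-SOX9 7 (13.2%, background 14%), with dTA-SOX9 11 (20.8%, background 17.9%) and with dHMG-SOX9 6 (11.3%, background 12.4%). Distinct peaks numbered 4, 8, 16 and 7. The genes without DOX were Krt10, Krt33a, Krt17 and Krt6a, with maxima of 1822 or 2024 RPKM, or 9 to 10 fragments. These 4 genes thus had a MYC-tag peak in cells without the inducer, and in the list of replicate 1 alone 2 genes had one.

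WT-SOX9 had peaks at Krt23, Krt31, Krt71, Krt75, Krt90, Krt6a and Krt5, and dTA-SOX9 at Krt39, Krt33a, Krt32, Krt13, Krt14, Krt16, Krt17, Krt88, Krt81, Krt6a and Krt5. Krt6a and Krt5 were in both lists, 28.6% of the 7 and 18.2% of the 11, while of all genes with a peak 49.6% of those with WT-SOX9 and 39% of those with dTA-SOX9 were in both (background 6.97%). Of the WT-SOX9 peaks at keratin genes, 3 of 8 overlapped MLL3/4 of cells without DOX (37.5%, 13.7 to 69.4; all WT-SOX9 peaks 27.7%), and of the dTA-SOX9 peaks 13 of 16 (81.2%, 57 to 93.4; all 68.3%). With MLL3/4 of WT-SOX9 cells, 7 of 8 WT-SOX9 peaks coincided (87.5%, 52.9 to 97.8; all 56.6%). WT-SOX9 and dTA-SOX9 peaks rest on few fragments, 11 in the weakest keratin peak of WT-SOX9.

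Krt31, Krt71 and Krt23 had the WT-SOX9 peaks that coincided with MLL3/4 seen in no other culture list. The Krt31 site at +3139 bp, in an intron, had 2955 RPKM of MYC tag with WT-SOX9 and no MYC-tag peak in the other 3 lists. In skin it had SOX9 at 5244, 6952 and 2770 RPKM at W1, W2 and W6, and none at D0 or W12, and its MLL3/4 was absent at D0 and present at W1 and W2. The Krt71 site at +1288 bp, also intronic in a type II inner root sheath gene, had 2791 RPKM with WT-SOX9 and a skin SOX9 peak at W6 alone (2057 RPKM). Krt23, a type I keratin of simple epithelia, had the strongest of these, 4432 RPKM and 27 fragments, in an intron with no skin SOX9 peak. Of the skin sites that WT-SOX9 shared and that had no D0 peak, those at Krt31 and Krt71 are shown because they are the hair keratin sites found in both systems.
Krt31 +3139: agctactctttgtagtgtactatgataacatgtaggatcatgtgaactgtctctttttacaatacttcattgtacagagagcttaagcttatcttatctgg
Krt71 +1288: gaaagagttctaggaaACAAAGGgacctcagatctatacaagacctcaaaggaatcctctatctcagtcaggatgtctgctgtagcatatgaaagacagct
They lie at chr11:100047362-100047462 and chr15:101741771-101741871, on the minus strand. The Krt71 site holds ACAAAGG, the reverse complement of CCTTTGT, in capitals. The Krt31 site holds no SOX word as spelled here and 2 overlapping copies of CTTATCT, the reverse complement of the GATA word AGATAAG. It does hold tctttgt and tcattgt, which differ from SOX words in the first letter alone. In all, 2 of 8 WT-SOX9 keratin peaks held a SOX word at the centre (25%) against 34.2% of the list, and 1 of 16 dTA-SOX9 keratin peaks (6.25%) against 12.6%.

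Among the epidermal keratins, Krt14 had 0, 3 and 1 peaks for WT-, dTA- and dHMG-SOX9, while its start site had a SOX9 peak at all times in skin. Krt5 had 1, 2 and 1, and all 3 forms had a peak in the merged site around -2134 bp, with maxima of 2627, 2872 and 1982 RPKM. The dHMG-SOX9 value, 8 fragments, is the lowest maximum in its list. The study reports that this form failed to bind DNA, so its peaks here are not read as binding. Krt6a had 3, 4 and 0, with the highest maxima at 2298 RPKM for WT-SOX9 and 6974 for dTA-SOX9. Krt16 had 0, 1 and 1 and Krt80 0, 0 and 1. Suprabasal genes had none with WT-SOX9 or dTA-SOX9, and dHMG-SOX9 had 1 at Krt10 (2230 RPKM, 9 fragments).

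MLL3/4 in culture was present at 28 keratin genes without DOX (background 44.5%), at 18 with WT-SOX9 (background 18.8%), at 24 with dTA-SOX9 (background 36.4%) and at 23 with dHMG-SOX9 (background 37.4%). Distinct peaks numbered 52, 20, 39 and 43. The WT-SOX9 list is short, and in lists of 10543 peaks each the counts were 16, 18, 15 and 15 (backgrounds 19.3%, 18.8%, 18.9% and 21.2%), so that the lower count with WT-SOX9 was not seen in lists of equal size. All suprabasal genes were without an MLL3/4 peak in all 4 culture lists, and so were Krt12, Krt35, Krt36, Krt73, Krt4 and Krt79, which had one in skin. In all, 10 keratin genes had MLL3/4 in skin alone (18.9%, background 13.3%), and 10 in culture alone (18.9%, background 7.94%). The latter were Krt13, Krt82, Krt84, Krt86, Krt6b, Krt27, Krt75, Krt71, Krt90 and Krt222.

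With WT-SOX9, 14 keratin genes lost their last MLL3/4 peak (background 27.9%) and 4 gained a first (background 2.27%). The lost were Krt15, Krt16, Krt19, Krt13, Krt24, Krt27, Krt33b, Krt42, Krt6b, Krt78, Krt8, Krt82, Krt84 and Krt87, and the gained were Krt31, Krt71, Krt75 and Krt90. In lists of equal size 6 were lost (background 7.03%) and 8 were gained (background 6.53%), and those 4 genes were among the 8. With gene bodies alone 4 were gained (background 2.13%), Krt23, Krt31, Krt71 and Krt75. With 10 kb to each side it was 2 (background 2.38%), Krt34 and Krt71. The Krt31 site at -5414 bp had MLL3/4 peaks in cells without DOX, outside the 5 kb window. Krt31, Krt71, Krt75 and Krt90 also had a WT-SOX9 MYC-tag peak each. Of 20 keratin MLL3/4 peaks with WT-SOX9, 7 did not overlap a peak without DOX (35%, whole list 41.8%). Of those 7, 4 overlapped a WT-SOX9 MYC-tag peak (57.1%), near the 53.5% of such peaks in the whole list. At Krt75 and Krt90, which share both peaks, the MYC-tag and MLL3/4 peaks did not overlap. With dTA-SOX9 6 genes lost (background 12%) and 2 gained (background 3.86%), and with dHMG-SOX9 7 lost (background 10%) and 2 gained (background 2.98%). In lists of equal size dTA-SOX9 had 1 lost (background 4.5%) and 0 gained (background 4.03%), and dHMG-SOX9 3 lost (background 2.94%) and 2 gained (background 4.78%). The 2 samples behind the WT-SOX9 list are numbered 1 and 2 in their titles, while the descriptions in the labels give both as biological replicate 2, so it is open to doubt whether they are separate.

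Of single genes, Krt5 had 7, 2, 4 and 4 MLL3/4 peaks without DOX and with WT-, dTA- and dHMG-SOX9. Krt14 had 5, 1, 3 and 3, Krt6a 3, 3, 3 and 7, Krt17 4, 1, 7 and 6, and Krt80 5, 1, 2 and 3. The 1 MLL3/4 peak at Krt80 with WT-SOX9 was the intronic site at +15677 bp, where neither of the other forms nor the cells without DOX had one. In all 4 culture lists, 10 keratin genes had MLL3/4 (18.9%, background 14.5%), among them Krt5, Krt14, Krt17, Krt6a, Krt80 and Krt32. Of the keratin MLL3/4 peaks without DOX, 14 of 52 overlapped a peak with WT-SOX9 (26.9%, 16.8 to 40.3; whole list 18%), 29 with dTA-SOX9 (55.8%, 42.3 to 68.4; 55.7%) and 35 with dHMG-SOX9 (67.3%, 53.8 to 78.5; 56.5%). By class, shared peaks with WT-SOX9 were 3 of 13 at basal, 3 of 9 at wound and companion layer, 6 of 13 at hair shaft, 1 of 7 at simple epithelial and 0 of 9 at other stratified genes.

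In every MLL3/4 list a smaller share of the Krtap genes inside the chromosome 11 cluster than of the keratin genes had a peak. MLL3/4 was present at 1, 1 and 0 of 23 Krtap genes at D0, W1 and W2, and in culture at 4, 0, 8 and 5. In culture these were 17.4%, 0%, 34.8% and 21.7%, against 52.8%, 34%, 45.3% and 43.4% of keratin genes. SOX9 at W12 was present at 17.4% of Krtap and 17% of keratin genes, and the MYC tag with dTA-SOX9 at 21.7% and 20.8%. In the other MYC-tag lists no Krtap gene had a peak. Krtap windows are shorter, with a median of 10973 bp. Per 100 kb, Krtap windows held 0.473 MLL3/4 peaks at D0 and keratin windows 6.79. Among 12 genes of filament partners, such as desmosomal and linker proteins, SOX9 was present at 6, 7, 9, 10 and 5 over the 5 times and MLL3/4 at 10, 10 and 11 in skin, with 9.04 MLL3/4 peaks per 100 kb at D0.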

How the data were processed

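CNR of SOX9, the MYC tag and MLL3/4 was done in 16 groups of 2 samples, 32 of 41 samples in the series; the other 9 (JUN, ARID1a and BRG1) were not analysed here. Per the study's methods, the authors trimmed reads, aligned them to mm10 with Bowtie2 2.2.9, used Picard against duplicates, restricted the reads to fragments of 120 bp or less (SAMtools 1.3.1) and called peaks with SEACR (stringent, threshold 0.01) on pooled samples. The placement of multiply mapping reads is not given in the sources used here. In the deposited lists the maximum of a SOX9 or MYC-tag peak is in RPKM (deepTools 3.1.2), with a limit of 1800, and that of an MLL3/4 peak is unscaled signal, or coverage. The total signal of a peak was treated as a score deposited by the authors and used only to rank peaks within a list. A replicate 1 list of each of 2 groups without DOX entered only the alternatives. A MYC-tag or SOX9 maximum divided by the RPKM step of 1 fragment (30.7 to 76.4 for SOX9, 164.2 to 247.8 for the MYC tag) gave whole fragments.

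Genes were all protein-coding genes of the GENCODE vM21 annotation of mm10. Their windows reached 5 kb beyond the gene body, an overlap of 1 bp counted, and a promoter was the 1 kb around any transcript start. Words were searched on both strands in 101 bp around each maximum, with the TP63 word by its name, in the RefSeq sequence of the same build. Since each group has 1 pooled list, no test was made, and Wilson 95% intervals cover counting error only. Every keratin gene was described, and the sites named were those with a D0 SOX9 peak, those in all later lists, and those shared with WT-SOX9, with others named to account for a gene; 1 such site is not reported here. Members, classes and lists were chosen with earlier results of these data known. Alternatives were other windows, nearest gene start, stronger peaks, lists of equal size and the replicate 1 lists. The counting was tested on simulated peaks. Python 3.11.15, pandas 2.3.3, numpy 2.4.6, scipy 1.17.1 and matplotlib 3.10.9 were used.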

Additional observations from a re-analysis of the deposited data

How the results depend on the processing

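No paired analysis was possible because each group has 1 list called on pooled samples and no result comes from a test. Counts are given in the order SOX9 D0, W1, W2, W6 and W12, MLL3/4 D0, W1 and W2, MYC tag no DOX, WT-, dTA- and dHMG-SOX9, and MLL3/4 of the same 4 culture groups. Gene bodies alone gave 1, 10, 8, 14, 5, 12, 11, 10, 1, 4, 4, 1, 14, 9, 10 and 10 keratin genes with a peak and 1, 14, 13, 15, 5, 19, 16, 16, 1, 4, 4, 1, 17, 9, 13 and 11 distinct peaks. They also gave 9 genes gaining SOX9 by W1, 4 gaining and 5 losing MLL3/4 by W1, 4 losing it by W2, 9 losing it with WT-SOX9, and 1 gaining it in each of dTA-SOX9 and dHMG-SOX9. With 10 kb to each side, the MYC tag had 8 genes without DOX and 19 with dTA-SOX9, 5 genes gained MLL3/4 by W1, 2 with WT-SOX9 and 1 with dTA-SOX9. By nearest gene start, 1 gene gained MLL3/4 with dHMG-SOX9. Above 3600 RPKM, SOX9 had 0, 3, 9, 8 and 2 genes and 0, 4, 13, 10 and 2 peaks, the MYC tag had 0, 1, 4 and 0 of each, and 3 genes gained SOX9 by W1.

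With the 50% of peaks of highest total signal, SOX9 had 14 genes at W6 and 15, 25 and 19 peaks at W1, W2 and W6. MLL3/4 had 17 genes at W2, 31, 28 and 23 peaks in skin, 9 genes with WT-SOX9 and 15 with dHMG-SOX9, and 33, 8, 23 and 23 peaks in culture. The MYC tag had 2 genes without DOX and 2, 5 and 7 peaks without DOX and with WT- and dTA-SOX9. SOX9 was then gained by 9 genes by W1, and MLL3/4 by 4 by W1, 6 by W2 and 0 with dHMG-SOX9. In lists of equal size, SOX9 had 14 genes and 18 peaks at W6, the MYC tag 7 genes with dTA-SOX9 and 5 and 6 peaks with WT- and dTA-SOX9, and MLL3/4 16, 15 and 15 genes and 21, 17 and 20 peaks without DOX and with dTA- and dHMG-SOX9. MLL3/4 was gained by 4 genes by W2, 8 with WT-SOX9 and 0 with dTA-SOX9, and lost by 6, 1 and 3 with WT-, dTA- and dHMG-SOX9. Without replicate 2, the MYC tag without DOX had 2 genes. Over whole peaks, SOX words were at 48.1%, 31.6% and 59.4% of keratin peaks at W1, W2 and W6, against 50.2%, 37% and 48.2% of the lists. At D0 and W12 they were at 20% and 25% of keratin peaks, against 36.2% and 48.2% of the lists. A window of 5 kb to each side of the gene start, chosen after seeing the data, gave MLL3/4 at 18 genes at D0 and 15 at W2 (36.7% and 26.5% of all genes) and the MYC tag at 7 genes with dTA-SOX9. Fewer peaks or smaller windows cannot raise a count of peaks or of genes with a peak, but counts of genes gained or lost can move either way, and the cause of those shifts was not tested. Requiring the maximum to lie inside the window left all 16 counts of genes with a peak within 1.5 times, and the 6 shares of SOX9 peaks on MLL3/4 moved little.

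The limits are those of pooled lists. Replicate error cannot be given, signal under the limit of a list is not seen, and the RPKM limit stands for 24 to 59 fragments in the SOX9 lists and 8 to 11 in the MYC-tag lists. MLL3/4 depth is unknown.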
